A study of Mus musculus with 12 samples.

Results

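The TSC22 domain family is a set of 4 mouse genes, *Tsc22d1*, *Tsc22d2*, *Tsc22d3* and *Tsc22d4*, of which *Tsc22d3* encodes the glucocorticoid-induced leucine zipper (GILZ). The members were taken by gene symbol from a table of fragment counts for 54532 genes, and all 4 were present, once each. In the coordinates of the count table (GRCm38), *Tsc22d1* (ENSMUSG00000022010) spans chr14:76414961-76507765 (+), *Tsc22d2* (ENSMUSG00000027806) spans chr3:58414715-58466783 (+), *Tsc22d3* (ENSMUSG00000031431) spans chrX:140539528-140600659 (-), and *Tsc22d4* (ENSMUSG00000029723) spans chr5:137745730-137768450 (+). Counts were available for 12 bulk RNA-seq libraries from fetal mouse ovaries at E15.5 (embryonic day), in 4 groups of 3 replicates. Pregnant dams carrying Tg(Pou5f1-EGFP)2Mnn embryos were injected intraperitoneally with dexamethasone (dex, a synthetic glucocorticoid receptor agonist) at 10 µg per g, or with saline, once a day from E12.5 to E15.5. Ovaries were dissociated and sorted by flow cytometry into OCT4-GFP positive germ cells and OCT4-GFP negative somatic cells. The 4 groups were therefore dex germ, saline germ, dex somatic and saline somatic cells. All groups carried the reporter, in which GFP marks germ cells through *Pou5f1* (OCT4) regulatory sequence, and the GFP-negative fraction was a mixture of every other ovarian cell type. Each replicate held cells sorted from ovaries that were pooled over independently dosed litters. In bulk samples of this kind, fewer cells of a type and less RNA per cell cannot be told apart.

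TSC22 proteins share a conserved stretch called the TSC box, followed by a leucine zipper through which they form homodimers and heterodimers. They lack a classical DNA-binding basic region and act largely through partner proteins. *Tsc22d1* was first found as a transcript induced by transforming growth factor beta (TGF-β), and *Tsc22d3* is one of the best known direct targets of the glucocorticoid receptor, a hormone-activated transcription factor encoded by *Nr3c1*. GILZ binds and restrains NF-κB and AP-1 and mediates part of the anti-inflammatory action of glucocorticoids in immune cells. The long forms of TSC22D1, TSC22D2 and TSC22D4 associate with the pseudokinase NRBP1 and with WNK kinases, which control the cation-chloride cotransporters that set cell volume. The design asks whether dex acts on these genes in fetal germ cells, in the surrounding somatic cells, or in both.

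The shared coding stretch is printed here because it is what makes the 4 genes a family and bears on whether their reads can be told apart. For each member, the 120 coding bases that best matched the *Tsc22d3* transcript Tsc22d3-201 over this stretch were read from the Gencode transcripts of GRCm38, 5′ to 3′ on the coding strand. Capitals mark bases that are identical in all 4 members, which was the case at 72 of 120 positions (60%).
Tsc22d1: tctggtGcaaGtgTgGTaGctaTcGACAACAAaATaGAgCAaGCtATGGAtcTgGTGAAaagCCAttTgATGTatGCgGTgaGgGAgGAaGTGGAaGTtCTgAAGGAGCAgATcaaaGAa
Tsc22d2: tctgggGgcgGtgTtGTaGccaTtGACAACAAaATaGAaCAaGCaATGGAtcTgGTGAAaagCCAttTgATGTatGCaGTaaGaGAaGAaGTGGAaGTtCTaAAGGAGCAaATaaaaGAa
Tsc22d3: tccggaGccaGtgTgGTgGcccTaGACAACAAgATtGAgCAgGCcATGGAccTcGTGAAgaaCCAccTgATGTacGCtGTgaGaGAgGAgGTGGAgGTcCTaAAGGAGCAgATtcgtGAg
Tsc22d4: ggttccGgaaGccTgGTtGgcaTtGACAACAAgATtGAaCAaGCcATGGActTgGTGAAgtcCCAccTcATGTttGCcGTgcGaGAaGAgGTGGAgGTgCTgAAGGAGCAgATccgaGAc
On the genome these bases span an intron in each gene and lie at chr14:76505250-76506488 (+) for *Tsc22d1*, chr3:58459335-58460079 (+) for *Tsc22d2*, chrX:140541036-140542152 (-) for *Tsc22d3* and chr5:137758685-137759138 (+) for *Tsc22d4*. *Tsc22d1* and *Tsc22d2* were the most alike pair over this stretch, with 104 identical bases (86.7%), and *Tsc22d2* and *Tsc22d4* the least alike, with 84 (70%). The capitals fall into short runs, and over the full annotated transcripts no stretch of 50 bases was shared between any pair of members. With any other annotated gene, *Tsc22d3* shared 20 such stretches (0.456% of its own), all with the pseudogene *Gm8812*, which had 0 counts in every library. *Tsc22d4* shared 10 (0.133%), and *Tsc22d1* and *Tsc22d2* shared 0. No annotated gene overlapped the span of any member on either strand.

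The libraries held 14658503 to 18245507 counts. A member had between 144 and 18901 counts in a library, with the fewest for *Tsc22d4* in germ cells. All 8 germ cell markers, among them *Ddx4* and *Dazl*, were higher in the saline germ cell libraries than in the saline somatic libraries, and all 8 pregranulosa and all 8 stromal markers were lower. Over all genes, 43.1% were called higher and 42.9% lower. Summed germ cell markers in somatic libraries reached 0.116% to 0.216% of their germ cell level after saline and 0.37% to 0.584% after dex. In germ cell libraries, summed stromal markers lay at 0.539% to 1.08% of their somatic level. Pregranulosa markers lay at 2.92% to 6.09% after saline and 2.45% to 10.6% after dex. Endothelial markers, of which 1 of 6 was higher in germ cells, lay at 13.9% to 16% and 16.7% to 20.4%. Macrophage markers lay at 14.3% to 18.3% after saline and 32.7% to 46% after dex. The macrophage sums in germ cell libraries were 33.6 to 42.8 CPM (counts per 1000000 library counts, after scaling by the trimmed mean of M-values) after saline and 35.0 to 49.2 CPM after dex, whereas the somatic sums they are divided by were 192 to 265 and 51.8 to 137 CPM. The median share over single macrophage markers was lower than that of the sums, at 1.94% to 6.66% after saline and 6.88% to 16.3% after dex.

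The 4 genes differed in where they were expressed. On the length-corrected scale (FPKM, fragments by exon length and sequencing depth), *Tsc22d3* led the family in germ cells and *Tsc22d1* led it in somatic cells. In saline germ cells *Tsc22d3* stood at 90.9 ± 5.10 FPKM (SD, n = 3), *Tsc22d2* at 27.1 ± 0.689, *Tsc22d1* at 21.8 ± 2.29 and *Tsc22d4* at 1.64 ± 0.437. In saline somatic cells the order was *Tsc22d1* at 98.7 ± 1.83, *Tsc22d3* at 14.8 ± 0.609, *Tsc22d4* at 11.9 ± 0.738 and *Tsc22d2* at 7.22 ± 0.214. The same orders were found after dex, and in all 4 groups the ranges of neighbours in the order did not overlap. These ranges hold the spread between libraries only. Lengths are summed over all exons of a gene, 8994 bases for *Tsc22d1* and 11244 for *Tsc22d2*. Single coding transcripts can be far shorter, such as Tsc22d1-201 at 1762 bases, or close to it, such as Tsc22d2-201 at 9799. Transcript use was not measured, so orders, sums and shares between members depend on these lengths. Among protein-coding genes with at least 1 FPKM, *Tsc22d3* ranked 312 of 10646 in saline germ cells and 3420 of 12039 in saline somatic cells, whereas *Tsc22d1* ranked 2655 and 307.

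The summed level of the family after saline was 141 FPKM (range 137 to 145) in germ cells and 133 FPKM (range 129 to 136) in somatic cells, and these ranges stood just apart. *Tsc22d3* made up 64.2% ± 2.08 of the sum in saline germ cells and 11.1% ± 0.211 in saline somatic cells. *Tsc22d1* made up 15.4% ± 1.93 and 74.4% ± 0.499. After dex the somatic sum was 165 FPKM (range 160 to 170), above all 3 saline somatic libraries, and the *Tsc22d3* share of it was 18.9% ± 1.37. In dex germ cells the sum was 140 FPKM (range 135 to 147) and the *Tsc22d3* share was 62.3% ± 2.18, and the ranges of both overlapped those of the saline germ cells.

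**Figure D1:**
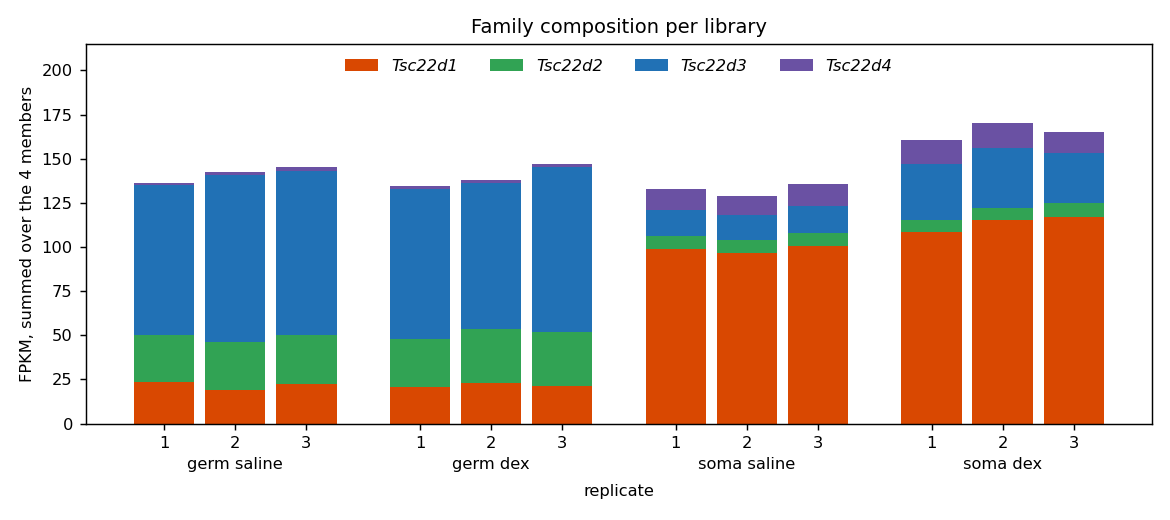
Stacked bars give the FPKM of the 4 members in each of the 12 libraries, grouped by cell type and treatment, with the replicate number on the x axis and the summed FPKM on the y axis. *Tsc22d3* fills 59.8% to 66.5% of each germ cell bar, and *Tsc22d1* fills 67.5% to 74.9% of each somatic bar.

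*Tsc22d3*, the GILZ gene, rose after dex in somatic cells and was not called in germ cells. The gene lies on the minus strand of the X chromosome, and its 3 annotated coding transcripts encode proteins of different length. In saline somatic cells its levels in replicates 1 to 3 were 65.4, 64.1 and 69.2 CPM, and in dex somatic cells they were 140, 152 and 130 CPM. Every dex library exceeded every saline library. The somatic level rose 2.12-fold, a log2 fold change of 1.08 (SE 0.072, 95% CI 0.93 to 1.24, Benjamini-Hochberg (BH) adjusted p = 6.2e-07, edgeR quasi-likelihood test). Across all genes tested in somatic cells, 8.18% were called at an adjusted p of at most 0.05, with 4.81% higher and 3.36% lower. *Tsc22d3* was 32nd of 16556 genes by p-value and 184th of the 797 genes called higher by fold change.

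In germ cells the levels of *Tsc22d3* were 367, 410 and 396 CPM after saline and 379, 357 and 401 CPM after dex. The ranges overlapped, and the log2 fold change was -0.038 (95% CI -0.19 to 0.11, adjusted p = 0.866, edgeR). On the linear scale the interval ran from 0.879 to 1.08 times the saline level, which leaves out the 2.12-fold rise of somatic cells. Over all genes 0.208% were called in germ cells (35 of 16857), 0.089% higher and 0.119% lower. The difference between the responses was itself tested in a model of all 4 groups, and the dex effect on *Tsc22d3* was lower in germ cells by 1.13 on the log2 scale (germ minus somatic -1.13, SE 0.10, 95% CI -1.35 to -0.91, adjusted p = 1.87e-05, edgeR). In that test 1.62% of genes were called, 0.49% higher and 1.13% lower in germ cells. By p-value, *Tsc22d3* was 6th of the 19390 genes tested.

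In CPM, *Tsc22d3* stood higher in saline germ cells than in dex somatic cells, a pair of groups that was compared by range only and not tested. The lowest saline germ cell library, at 367 CPM, lay above the highest dex somatic library, at 152 CPM. Against saline somatic cells the saline germ cells were 5.95-fold higher (log2 2.57, 95% CI 2.41 to 2.74, adjusted p = 1.79e-13, edgeR), a comparison in which 86.1% of all genes tested were called. Against dex somatic cells the dex germ cells were 2.66-fold higher (log2 1.41, 95% CI 1.23 to 1.59, adjusted p = 2.95e-08, edgeR), where 84.3% of genes were called. The saline comparison of cell types shares its somatic libraries with the somatic dex comparison. X-linked genes as a whole had a median log2 ratio of germ to somatic cells of 0.36 after saline (704 genes tested), against 0.0047 over all genes.

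Of the 8 germ cell markers, 5 could be tested in somatic cells, and 1, *Dazl*, was called higher after dex and 0 lower. Their summed level in somatic libraries was 6.17 to 11.5 CPM after saline and 17.5 to 27.6 CPM after dex. *Dazl*, for a germ cell RNA-binding protein, made up most of that difference, at a mean of 1.17 CPM after saline and 12.8 CPM after dex. The other 7 markers summed to 4.98 to 10.1 CPM after saline and 4.60 to 15.003 CPM after dex, which overlapped. A share of 0.584%, the highest of the summed markers, corresponds to 2.21 CPM of *Tsc22d3* at its germ cell level. The dex somatic level of *Dazl* was 1.30% of its germ cell level, a share that corresponds to 4.92 CPM of *Tsc22d3*. The measured rise of *Tsc22d3* was 74.4 CPM. Of 8 macrophage markers, 4 were lower and 0 higher in dex somatic cells, beside the lower sums given above. Of 8 pregranulosa markers 1 was lower (summed 1371 to 1469 CPM after saline, 1151 to 1455 CPM after dex), and of 8 stromal markers 1 was higher (summed 20793 to 23257 CPM after saline, 19674 to 25681 CPM after dex). Of 6 endothelial markers, 2 were lower and 1 higher. Of 6 perivascular markers, 1 was higher and 0 lower. Of 6 erythroid and 5 surface epithelium markers, 0 were called. The erythroid sums varied widely, at 7398 to 12473 CPM after saline and 3316 to 16515 CPM after dex. Over all genes, 4.81% were called higher and 3.36% lower in somatic cells after dex. No marker of these somatic lists was at 0 in a somatic library, and the part of such shifts in the *Tsc22d3* result was not tested.

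**Figure D2:**
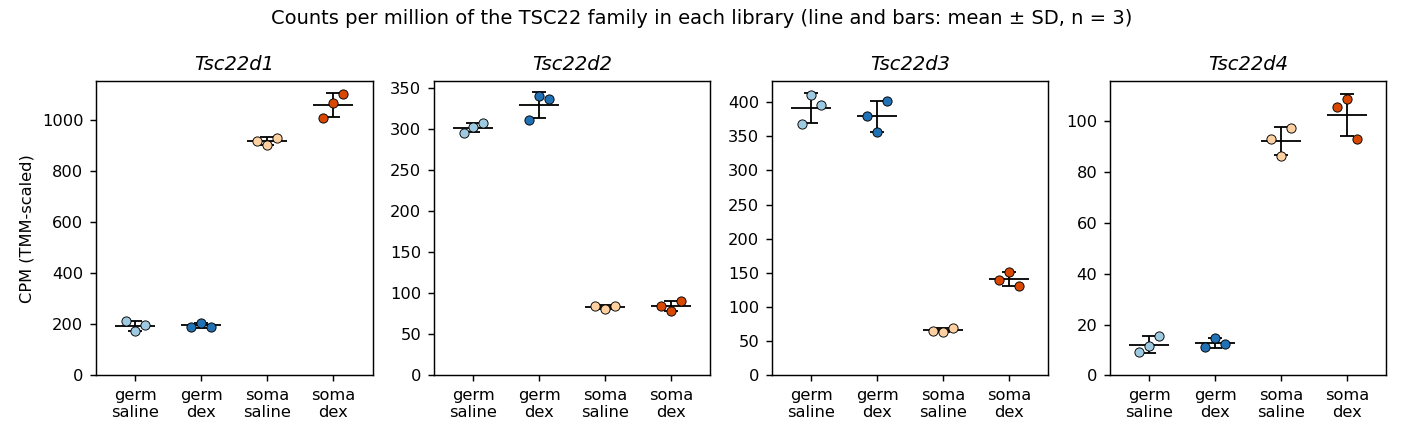
Each panel shows one member, with CPM on a linear y axis from 0, 1 point per library and the mean ± SD (n = 3) as lines. For *Tsc22d3* the dex somatic points (130 to 152 CPM) sit above the saline somatic points (64.1 to 69.2 CPM) and below all germ cell points (357 to 410 CPM).

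*Tsc22d3* has 3 promoter windows in the RefSeq table for GRCm38.p6, each from 250 bases before to 50 bases after an annotated start. Only the window of the most upstream start held TGTTCT, the hexamer recognised by a monomer of the glucocorticoid receptor, searched on both strands. The 113 bases of that window that lie before the annotated span of the gene, chrX:140600660-140600772 on the minus strand, are given with the hexamer in capitals.
Tsc22d3 upstream window: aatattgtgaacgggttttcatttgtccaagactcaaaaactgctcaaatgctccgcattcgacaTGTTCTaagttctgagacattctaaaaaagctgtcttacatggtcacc
This match began 185 bases before the RefSeq start. The same letters were present in 19% of 32851 windows of all genes, and 1 of the 5 windows of *Tsc22d1* held them too, 137 bases before its start and on the reverse strand. The core ACANNNTGT, present in 6.85% of all windows, and the full sites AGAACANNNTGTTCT and GGAACANNNTGTTCT, present in 0.00913% and 0.0244%, were in none of the 8 windows of either gene. A match is a description of the sequence, and enhancers farther away lie outside these windows.

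*Tsc22d1*, the TGF-β-stimulated member, was predominantly somatic. In somatic cells it measured 917, 900 and 931 CPM after saline and 1006, 1066 and 1100 CPM after dex, so the groups did not overlap. The log2 difference was 0.20 (SE 0.061, 95% CI 0.071 to 0.34, 1.15-fold), with an unadjusted p of 0.0056 and an adjusted p of 0.062 in edgeR, and it was not called. The same difference was called by DESeq2 (log2 0.20, adjusted p = 0.00636). In germ cells *Tsc22d1* measured 212, 173 and 198 CPM after saline and 190, 207 and 190 CPM after dex, which overlapped (log2 0.019, 95% CI -0.15 to 0.19, adjusted p = 0.95, edgeR). The germ and somatic effects differed by -0.20 (95% CI -0.42 to 0.030, adjusted p = 0.408, edgeR), so a difference between the cell types was not shown. *Tsc22d1* was 4.69-fold lower in germ cells after saline (log2 -2.23, 95% CI -2.40 to -2.05, adjusted p = 1.79e-12, edgeR) and 5.47-fold lower after dex (log2 -2.45, adjusted p = 3.68e-10, edgeR). Its germ cell level was 21.2% of the somatic level after saline, and the part that somatic RNA in the germ cell sort has in it was not tested.

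*Tsc22d4*, which has been linked to lipid and glucose metabolism in liver, had the lowest germ cell level of the family. It measured 9.32, 11.6 and 15.6 CPM in saline germ cells and 92.9, 86.5 and 97.6 CPM in saline somatic cells. Germ cells were 7.49-fold lower (log2 -2.90, 95% CI -3.20 to -2.61, adjusted p = 3.31e-11, edgeR), with a level of 13.2% of the somatic one, and after dex they were 8.15-fold lower (log2 -3.03, adjusted p = 1.23e-09, edgeR). The part of somatic RNA in that level was not tested either, and after saline the summed marker shares given above for such RNA ranged from 0.539% for stroma to 18.3% for macrophages. After dex the somatic levels were 106, 109 and 93.2 CPM, which overlapped saline (log2 0.15, 95% CI -0.013 to 0.31, adjusted p = 0.286, edgeR). The germ cell levels of 11.0, 14.6 and 12.6 CPM after dex also overlapped saline (log2 0.071, 95% CI -0.35 to 0.49, adjusted p = 0.919, edgeR). This interval is the widest of the family and reaches a 1.41-fold rise.

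*Tsc22d2*, the member with the longest summed exons in the count table (11244 bases), was predominantly germ cell expressed. Saline germ cells measured 296, 303 and 308 CPM and saline somatic cells 85.1, 81.2 and 85.1 CPM. The germ cell level was 3.63-fold higher (log2 1.86, 95% CI 1.71 to 2.01, adjusted p = 1.83e-12, edgeR), and after dex it was 3.85-fold higher (log2 1.94, adjusted p = 1.53e-09, edgeR). In dex germ cells it measured 311, 340 and 338 CPM, each above every saline germ cell library. The log2 difference was 0.13 (95% CI -0.0011 to 0.27, 1.10-fold), with an unadjusted p of 0.0516 and an adjusted p of 0.435 in edgeR, and it was not called by either tool. Somatic levels of 84.5, 78.8 and 90.5 CPM after dex overlapped saline (log2 0.0095, 95% CI -0.13 to 0.15, adjusted p = 0.958, edgeR). The effects in the 2 cell types differed by 0.11 (95% CI -0.088 to 0.31, adjusted p = 0.621, edgeR).

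Counted over the family, 1 of 4 members was called in somatic cells after dex, where 8.18% of all genes were, and 0 of 4 in germ cells, where 0.208% were. In germ cells 0 of 4 had an unadjusted p under 0.05 in edgeR, and DESeq2 called 0 of 4. In the direct test of the difference, 1 of 4 was called, against 1.62% of all genes. All 4 members differed between germ and somatic cells after saline and again after dex, with 2 higher and 2 lower in germ cells. Over all genes, 43.1% were called higher and 42.9% lower in germ cells after saline, and 42% and 42.2% after dex.

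**Figure D3:**
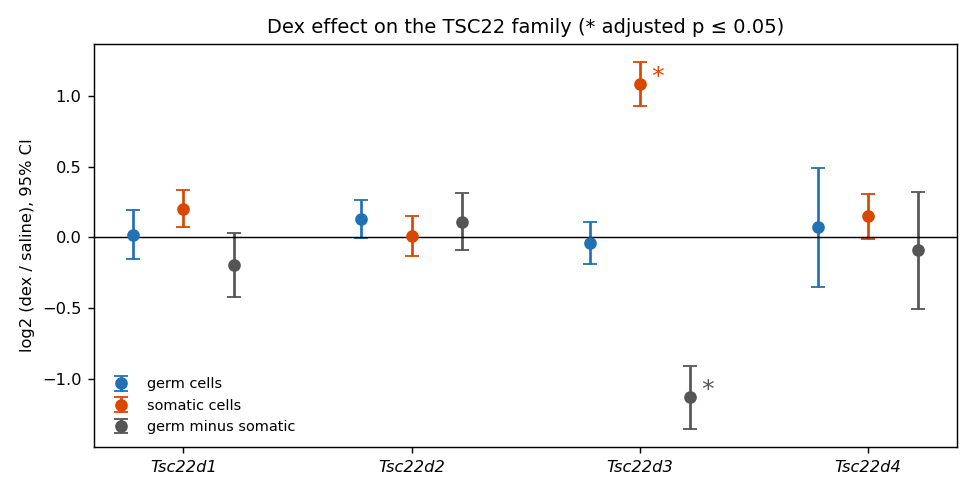
Points give the log2 ratio of dex to saline for each member in germ cells and in somatic cells, and the germ minus somatic difference, with 95% confidence intervals; asterisks mark an adjusted p of at most 0.05. The somatic point of *Tsc22d3* at 1.08 and its difference at -1.13 are the 2 that carry an asterisk.

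A list of 25 genes known to be induced by glucocorticoids in other tissues, without *Tsc22d3*, gave the setting of this response. The list was chosen with earlier results of these data known, so its counts are a description. In somatic cells the median log2 fold change of the 23 tested was 0.97, against 0.00014 over all genes. Against 4.81% higher and 3.36% lower over all genes, 17 of the 23 were higher after dex and 0 lower. They included the transcription factor genes *Zbtb16* (0.560 to 70.2 CPM, log2 6.94), *Klf9* (8.80 to 79.2 CPM, log2 3.16), *Klf15* (log2 3.04) and *Cebpd* (log2 2.25). In germ cells the median of the 20 tested was 0.49 against 0.014, and DESeq2 called 5. Against 0.089% higher and 0.119% lower over all genes, edgeR called 4 of the 20 higher and 0 lower. These were *Zbtb16* (log2 2.96, 0.451 to 3.57 CPM, adjusted p = 0.0249), the circadian regulator *Per1* (log2 1.91, 14.4 to 53.7 CPM, adjusted p = 0.000906), the hypoxia-inducible factor subunit gene *Hif3a* (log2 1.35, 7.56 to 19.1 CPM, adjusted p = 0.00279) and the NF-κB inhibitor gene *Nfkbia* (log2 0.99, 19.6 to 38.7 CPM, adjusted p = 0.00133), all by edgeR. In somatic cells these 4 genes went from 0.560 to 70.2, 83.0 to 267, 180 to 494 and 94.8 to 102 CPM, in the same order. The part that somatic RNA in the germ cell sort has in their germ cell rises was not tested. *Tsc22d3* was not called in germ cells, nor were 16 of the 20 listed genes tested.

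In the direct test, 8 of 23 listed genes had a lower dex effect in germ cells, among them *Zbtb16* (-3.99), *Klf9* (-2.95), *Klf15* (-2.78) and *Cebpd* (-1.75), and 1, *Nfkbia*, had a higher one (0.88, adjusted p = 0.000865, edgeR). Over all genes 1.13% were called lower and 0.49% higher in that test. The value for *Tsc22d3* was -1.13. After saline, 42.9% of all genes were called lower in germ cells than in somatic cells and 43.1% higher. Of 22 listed genes 20 were lower and 2 higher, with a median of -3.40 against 0.0047 over all genes. Among the lower were *Lcn2* (log2 -5.75), *Zfp36* (log2 -4.97), *Bcl6* (log2 -4.73) and *Hif3a* (log2 -4.56). *Lcn2* stood at a mean of 0.039 CPM in saline germ cells, where 3 counts in a library come to 0.164 to 0.205 CPM. The size of its ratio is therefore uncertain. The 2 higher were *Klf15* (log2 2.39) and *Errfi1*, a feedback inhibitor of epidermal growth factor receptor (log2 1.84), and *Tsc22d3* was on their side at 2.57.

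**Figure D4:**
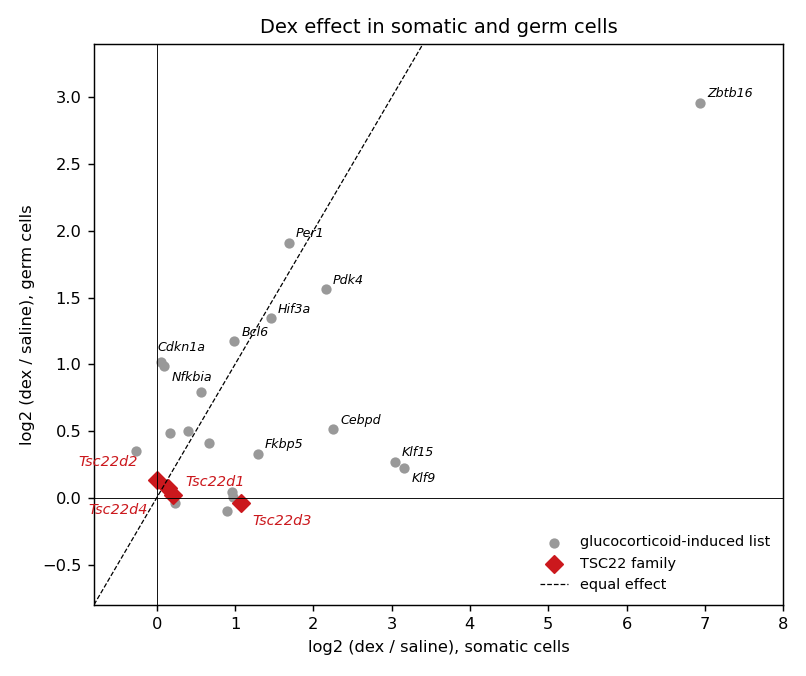
Each grey point is a listed glucocorticoid-induced gene tested in both cell types, with its log2 ratio of dex to saline in somatic cells on the x axis and in germ cells on the y axis; red diamonds are the TSC22 family and the dashed line marks equal effects. *Tsc22d3* lies at 1.08 and -0.038. Among the listed genes called in germ cells, *Per1*, *Hif3a* and *Zbtb16* lie above 1 on both axes.

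The glucocorticoid receptor gene *Nr3c1* was higher in germ cells after saline, at 159 CPM against 84.4 CPM (log2 0.92, adjusted p = 1.46e-08, edgeR). It was not called after dex in either cell type (germ log2 -0.018, adjusted p = 0.941; somatic log2 -0.17, adjusted p = 0.327, edgeR). The mineralocorticoid receptor gene *Nr3c2*, which also binds glucocorticoids, stood at 4.20 and 3.58 CPM in saline germ and somatic cells. *Pgr*, for the progesterone receptor, stood at 6.17 and 4.58 CPM, and neither was called in any comparison.

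GILZ acts through its partners, and 14 genes for proteins that bind it or act beside it were followed. After dex, 3 of 14 were higher in somatic cells, namely *Cebpb* (37.9 to 79.7 CPM, log2 1.07), *Fos*, an AP-1 subunit gene (1008 to 1481 CPM, log2 0.55), and the forkhead factor gene *Foxo3* (149 to 219 CPM, log2 0.55), and 0 were lower, against 4.81% higher and 3.36% lower over all genes. In germ cells 0 of 14 were called by edgeR or by DESeq2, with 3 at an unadjusted p under 0.05 in edgeR. The dex effect was lower in germ cells for 2 of 14, *Foxo3* (-0.80, adjusted p = 0.00276, edgeR) and *Foxo1* (-0.52, adjusted p = 0.0259, edgeR). Over all genes 1.13% were called lower in that test. After saline, 8 of 14 were lower in germ cells and 4 higher (57.1% and 28.6%, against 42.9% and 43.1% over all genes). The AP-1 genes *Fos* (20.9 against 1008 CPM, log2 -5.58) and *Jun* (30.9 against 764 CPM, log2 -4.61) were lower, as were *Cebpb* (log2 -3.84) and *Trp53* (log2 -3.52).

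The pathway of NRBP1 and the WNK kinases, with which the long TSC22 proteins associate, was followed with 11 genes. After dex, 1 of 11 was called in somatic cells, the kinase gene *Wnk2*, which was lower (17.3 to 11.9 CPM, log2 -0.54, adjusted p = 0.0353, edgeR). That count is near the 8.18% called over all genes. In germ cells 0 of 11 were called by edgeR, with 3 at an unadjusted p under 0.05, and DESeq2 called 1. The pseudokinase gene *Nrbp2* had a higher dex effect in germ cells in the direct test (0.90, adjusted p = 0.0307, edgeR), at 5.06 CPM after saline and 9.69 CPM after dex in germ cells. Its saline somatic level was far higher, at 137 CPM. The part that somatic RNA in the germ cell sort has in the germ cell values of *Nrbp2* was not tested. *Nrbp2* was the 1 of 11 called in that test, where 0.49% of all genes were called higher. After saline, 7 of 11 were higher in germ cells and 4 lower, against 43.1% and 42.9% over all genes, and the WNK genes divided between the cell types. *Wnk2* (165 against 17.3 CPM, log2 3.26) and *Wnk3* (123 against 15.9 CPM, log2 2.97) were higher in germ cells, whereas *Wnk4* (2.42 against 88.8 CPM, log2 -5.17) and *Nrbp2* (5.06 against 137 CPM, log2 -4.73) were higher in somatic cells.

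In the TGF-β pathway, the classical inducer of *Tsc22d1*, 2 of 14 genes were higher and 2 lower in somatic cells after dex, against 4.81% and 3.36% over all genes. *Tgfbr3*, for a TGF-β co-receptor, rose from 134 to 220 CPM (log2 0.71) and *Tgfb2*, for a ligand, from 175 to 213 CPM (log2 0.28). *Smad2*, for a signal transducer, fell from 62.2 to 50.7 CPM (log2 -0.30) and *Tgfbi*, for a TGF-β-induced matrix protein, from 878 to 756 CPM (log2 -0.22). In germ cells 0 of 14 were called by edgeR or DESeq2, with 2 at an unadjusted p under 0.05 in edgeR. After saline, 9 of 14 were lower and 4 higher in germ cells, against 42.9% and 43.1% over all genes. The ligand genes *Tgfb2* (log2 -6.44) and *Tgfb3* (log2 -6.41), the receptor gene *Tgfbr2* (log2 -5.99) and *Tgfbi* (log2 -7.33) were lower, on the same side as *Tsc22d1*.

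Across the 12 libraries the log2 CPM of *Tsc22d1* and *Tsc22d4* moved together (Pearson r = 0.99), as did that of *Tsc22d2* and *Tsc22d3* (r = 0.93), and these pairs opposed each other (*Tsc22d1* against *Tsc22d2*, r = -0.99). All of these values follow the split between germ and somatic libraries and are given as a description. Among 16150 genes compared, those most like *Tsc22d3* were *Spidr* (r = 0.995), *Pbk*, *Dazl*, *Mum1l1* and *Iscu* (r = 0.992). These genes were chosen over all 12 libraries, dex and saline, so their own dex differences follow from the choice and are given only as values. In the somatic libraries *Mum1l1* went from 43.9 to 84.6 CPM (log2 0.94) and *Dazl* from 1.17 to 12.8 CPM (log2 3.43). The genes most like *Tsc22d1* were *Ech1*, *Igsf3*, *Rbms2*, *Zmynd8* and *Arhgap23*, with log2 ratios of dex to saline in somatic cells of 0.22 to 0.31. The genes most like *Tsc22d2* were *Focad*, *Gm4969*, *Ep400*, *Fbxw7* and *Upf2*, and those most like *Tsc22d4* were *Cc2d2a*, *Ramp2*, *Sulf1*, *Pcgf2* and *Abat*.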

How the data were processed

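RNA-seq libraries were made from poly-A selected RNA. Per the submitters' processing notes and the study's methods, the authors aligned paired reads to mm10 with HISAT2 2.0.5 and counted fragments per gene with featureCounts 1.5.0-p3, and deposited raw counts and FPKM values computed from them. Strand setting and treatment of multi-mapping reads are not given in the sources used here. The authors also deposited, for each cell type, a table of their own DESeq2 1.20.0 comparison (fold changes and p-values), which was not used.

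The deposited counts were fitted over all genes with edgeR 4.0.16 (R 4.3.3): genes were filtered with filterByExpr, scaled by TMM and tested with the two-sided quasi-likelihood F-test, BH adjusted over all genes tested, with a call at an adjusted p of at most 0.05. Each pairwise comparison used its own 6 libraries, and the difference of dex responses used all 12. SE was the log2 fold change over the root of F. CPM used TMM factors over 12 libraries, and the deposited FPKM served for levels between genes. Similarity between genes was Pearson's r of log2 CPM (prior count 2, mean CPM of at least 1). The code of the fits was run on simulated counts with the same set spread for every gene. This does not show how the tests behave at the spread of these data. Alternatives were DESeq2 1.42.0, other size factors, no filter, 1 fit over 12 libraries, a replicate block and leaving out each library. Named genes were the 4 members, for each the 5 most alike genes, and from each gene list up to 4 called genes of largest absolute change per comparison with a mean CPM of at least 1, plus the glucocorticoid, mineralocorticoid and progesterone receptor genes. A listed gene is not reported here. *Errfi1* and *Gm8812* were named after their values were seen. The members and lists were chosen with earlier results of these data known. No batch is labelled. Per the study's methods each library pooled ovaries over litters, and p-values measure the spread between these pools.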

Additional observations from a re-analysis of the deposited data

Results flagged for a closer look

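1 result of the family differed between the cell types in a direct test. The dex effect on *Tsc22d3* was lower in germ cells than in somatic cells by 1.13 on the log2 scale (germ minus somatic -1.13, adjusted p = 1.87e-05, edgeR quasi-likelihood test over all 4 groups). In somatic cells all 3 dex libraries (130 to 152 CPM) lay above all 3 saline libraries (64.1 to 69.2 CPM), and in germ cells the dex libraries (357 to 401 CPM) and saline libraries (367 to 410 CPM) overlapped. Without each library in turn the difference ranged from -1.17 to -1.06. Over the other 4 alternatives it ranged from -1.14 to -1.13, with every adjusted p below the threshold.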

How the results depend on the processing

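Of 240 alternative values for the 4 members in 5 comparisons, 231 kept their direction and their side of the threshold, 1 passed it and 8 changed sign. The 1 was *Tsc22d1* in somatic cells after dex, called by DESeq2 (log2 0.20, adjusted p = 0.00636), with adjusted p from 0.0576 to 0.222 when a library was left out. The 8 all came from leaving out 1 library and were of values not called: *Tsc22d1* in germ cells after dex (-0.029 without germ dex replicate 2 and -0.064 without germ saline replicate 2, range -0.064 to 0.084), *Tsc22d4* in germ cells (-0.046 without germ dex replicate 2 and -0.088 without germ saline replicate 1, range -0.088 to 0.29), *Tsc22d2* in somatic cells (-0.040 without somatic dex replicate 3 and -0.012 without somatic saline replicate 2, range -0.040 to 0.043) and the *Tsc22d4* difference (0.012 without germ dex replicate 1 and 0.14 without germ saline replicate 3, range -0.24 to 0.14). The somatic dex effect on *Tsc22d3* ranged from 1.01 to 1.14 when a library was left out. On plain column totals, 16 of 16 group levels moved by less than 1 SD.

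The counts of called genes behind the background shares moved more. In germ cells after dex, 35 genes became 158 with DESeq2, 420 without the low-count filter and 64 in 1 fit over 12 libraries, and 17 to 81 without a library (81 without germ dex replicate 1, and 17 without germ dex replicate 2 or germ saline replicate 3). In somatic cells 1354 became 803 in 1 fit over 12 libraries and 754 to 1881 without a library (856 without dex replicate 2, 888 without saline replicate 1, 756 without saline replicate 2, 754 without saline replicate 3). For the difference 314 became 620 with DESeq2, 727 without the filter and 143 to 384 without a library, between 143 and 201 without germ dex replicate 2 or 3, germ saline replicate 3, somatic dex replicate 1 or 2, or somatic saline replicate 2 or 3. The cause was not tested.

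The sources used here do not say whether same-numbered libraries share ovaries, and the numbers were not treated as pairs. In deviations from group means, same-numbered germ and somatic libraries of a treatment correlated at 0.054 to 0.099, above the other numbers in 6 of 6 pairs, a hint from the data and not the design. Same-numbered dex and saline libraries of a cell type correlated at -0.0097 to 0.13, above the other numbers in 2 of 6. With the replicate number as a block, the calls were 49 in germ cells, 1520 in somatic cells, 313 for the difference, 15283 between cell types after saline and 15044 after dex, and no call on a member changed (*Tsc22d3* in somatic cells, log2 1.08, adjusted p = 5.06e-07, edgeR). At 144 to 272 counts a library, *Tsc22d4* in germ cells is the member whose depth most limits a statement.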
